A study of Mus musculus with 45 samples.

Results

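The genes described here carry out or control the oxidation of fatty acids in mitochondria and peroxisomes in the mouse heart. A list of 33 genes was used, covering the carnitine shuttle, the mitochondrial beta-oxidation spiral, the electron transfer flavoproteins, peroxisomal oxidation, ketone use and 2 regulators. A gene was taken where a probe set of the array was annotated to it alone, and where several were, the brightest on average stood for it. By this rule 31 of the 33 were found, among 12394 genes with a probe set, and 17 of the 31 had several probe sets. All 31 lay above the level below which dim genes were left out, which was set on the mean over all arrays and not on any group. Cpt1b, the muscle form of carnitine palmitoyltransferase 1, and Acsl1, a long-chain acyl-CoA synthetase, were not analysed here. The probe set listed for Cpt1b is annotated to neighbouring genes as well.

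As background, the working heart obtains most of its energy from long-chain fatty acids. They are activated to acyl-CoA, carried into the mitochondrion as carnitine esters and shortened in a repeating spiral of dehydrogenation, hydration, a second dehydrogenation and thiolysis, while the flavoprotein chain passes the first electrons to the respiratory chain. Very long and branched chains are shortened first in peroxisomes. The nuclear receptor PPAR alpha, which fatty acids activate, and its coactivator PGC-1 alpha control many of these genes, and ketone bodies are a competing fuel.

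Expression was measured in hearts of 45 male C57BL/6 mice, each on its own one-colour array. Regular weight mice (RW) were kept on a diet with 5 kcal% fat. Diet-induced obese mice (DIO) received a diet with 60 kcal% fat from the age of 6 weeks, which was 9 weeks before the first exposure, so diet and body weight differ together between RW and DIO. Both kinds of mice were 15 weeks old when nose-only inhalation began, 5 h per day in 8 exposures spread over 2 weeks. The sham controls (SC) inhaled filtered air, and the others mainstream smoke (MS), which a smoker would draw in, or sidestream smoke (SS), which rises from the burning tip. On the RW diet there were 8 mice in air, 8 in mainstream and 7 in sidestream smoke, and on the DIO diet 8, 6 and 8. Tissue was collected 1 day after the end of exposure. The question in the series title is whether diet-induced obesity alters the transcriptional response to smoke. One label speaks of a lipopolysaccharide study instead, and the titles and the treatment text were followed.

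Values are log2 expression, and a level of one probe set cannot be set against that of another. A gene was called where the limma adjusted p was under 0.05 over 9295 genes tested, and errors of differences are standard errors (SE). Of 10 cardiac muscle markers, the mean of Myh6 was 14.39 or 14.40 in every group, and in the 4 comparisons of smoke with air limma called 0 (1 in each at an unadjusted p under 0.05), with values between -0.082 and 0.078. The diet lowered Myl3 in all 3 settings (in air from 14.40 to 14.32) and Myl2 in air (-0.052), and in sidestream smoke Tnni3 was lower (-0.048) and Ryr2 higher (0.10). The markers Alb of liver and Myh4 of skeletal muscle stood at 4.82 ± 0.17 (SD, n = 8) and 3.40 ± 0.14 (SD, n = 8) in RW-SC. In DIO-SC Alb ran up to 7.69 (median 4.9), and the mean of the liver markers on DIO-SC 6 was 1.21, relative to all arrays. The hearts differed in other tissues they carried. RW-MS mice 2, 6 and 8 were nearly without atrial transcripts, with Sln, an atrial regulator of the calcium pump, as low as 4.47 against a group median of 12.29. Adipoq, a fat cell hormone, ranged from 4.07 to 11.24 over the arrays. Ucp1, a brown fat marker, ranged from 4.24 to 10.87, with means of 7.59 in RW-SC and 6.29 in DIO-SC. Of 6 tested brown fat markers 4 lay lower in DIO-SC than in RW-SC, of which 1 was called, and 2 lay higher. Red cell transcripts were high in RW-SS 2 and RW-SS 4. The mean of the white blood cell markers was 1.17 on RW-MS 7 and 0.90 on RW-SC 1, relative to all arrays. On RW-SS 7 the 3' minus 5' difference of Gapdh, which grows as RNA breaks down, was 0.94 against 0.21 to 0.40 on the others, and that array was the lowest of its group for 12 of the 31 genes.

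The promoters of 3 of the genes are shown, from RefSeq on GRCm38.p6, in the direction of transcription. Each window runs from 250 bases before to 50 bases after an annotated start. Windows were held for 26 of the 31 genes (27 windows). That of Slc25a20, the gene that passed in all 3 diet comparisons and all 4 comparisons of smoke with air, is chr9:108661886-108662185 (plus strand). That of Cpt1a, which was higher on the DIO diet in all 3 settings and lower under sidestream smoke in RW hearts, is chr19:3323051-3323350 (plus strand). It lies around a start inside the annotated gene, which begins at 3322326. Its capitals mark 1 AGGTCA site, the single unit that nuclear receptors bind, read on the other strand. That of Etfdh, which was called in all 3 diet comparisons and in none of smoke with air, is chr3:79628718-79629017 (minus strand). The palindromic element of the nuclear respiratory factor NRF1 is in capitals there.
Slc25a20: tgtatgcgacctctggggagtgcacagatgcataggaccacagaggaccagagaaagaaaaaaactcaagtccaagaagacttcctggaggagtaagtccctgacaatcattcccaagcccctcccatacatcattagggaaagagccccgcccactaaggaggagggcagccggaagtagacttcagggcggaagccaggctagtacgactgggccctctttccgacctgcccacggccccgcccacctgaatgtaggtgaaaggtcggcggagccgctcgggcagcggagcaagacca
Cpt1a: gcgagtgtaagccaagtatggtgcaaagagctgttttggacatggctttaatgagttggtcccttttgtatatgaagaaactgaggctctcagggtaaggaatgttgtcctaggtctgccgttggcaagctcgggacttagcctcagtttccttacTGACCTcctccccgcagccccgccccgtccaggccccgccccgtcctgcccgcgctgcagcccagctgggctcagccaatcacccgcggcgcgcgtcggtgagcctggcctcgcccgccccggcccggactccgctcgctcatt
Etfdh: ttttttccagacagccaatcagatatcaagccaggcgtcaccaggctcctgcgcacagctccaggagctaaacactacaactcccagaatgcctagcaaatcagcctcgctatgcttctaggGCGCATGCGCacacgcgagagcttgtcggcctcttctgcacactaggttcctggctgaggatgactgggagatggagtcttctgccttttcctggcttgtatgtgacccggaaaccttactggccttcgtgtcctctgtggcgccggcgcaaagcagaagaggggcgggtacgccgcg

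Motifs were searched on both strands as a description. The direct repeat that PPAR binds, AGGTCA followed after 1 free base by AGGTCA, lay in 0.0396% of all 32841 promoter windows of this length and in 0 of the 27 windows, and a looser form with AGGNCA in both places in 0.381% and 0. The ERR element TCAAGGTCA was found in 0.423% of all windows and in 0 of the 27, and the E-box CACGTG in 7.15% and 0. The NRF1 element, as capitalised in Etfdh, lay in 0.971% of all windows and in those of Etfdh and Ppara. The single site AGGTCA, which the direct repeat contains and which was added after the first search, lay in 16.3% of all windows and in those of Acadm, Acadvl, Cpt1a and Echs1. A missing match says only that these letters are not in this window.

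The high-fat diet raised most of these genes. In filtered air 22 of 31 were higher and 4 lower in DIO than in RW hearts, against a background of 6.92% of all genes tested called higher and 13.3% called lower (20.3% in either direction). The list was chosen with earlier results of these data known, so this and the later comparisons with all genes are descriptions only. Of 26 other tested genes of fatty acid oxidation 2 rose and 5 fell in air. The median difference was 0.25 log2 units over the 31 genes and -0.024 over all genes tested. For 18 of them the DIO-SC and RW-SC arrays did not overlap, which held for 4.05% of all genes. Slc25a20 (1.44-fold), Pex11a (1.43-fold) and Cpt2 (1.40-fold) rose most, and Bdh1 fell most, to 0.64 of the RW level. These are bulk hearts, in which fewer cells of a type and less RNA per cell cannot be told apart.

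**Figure D1:**
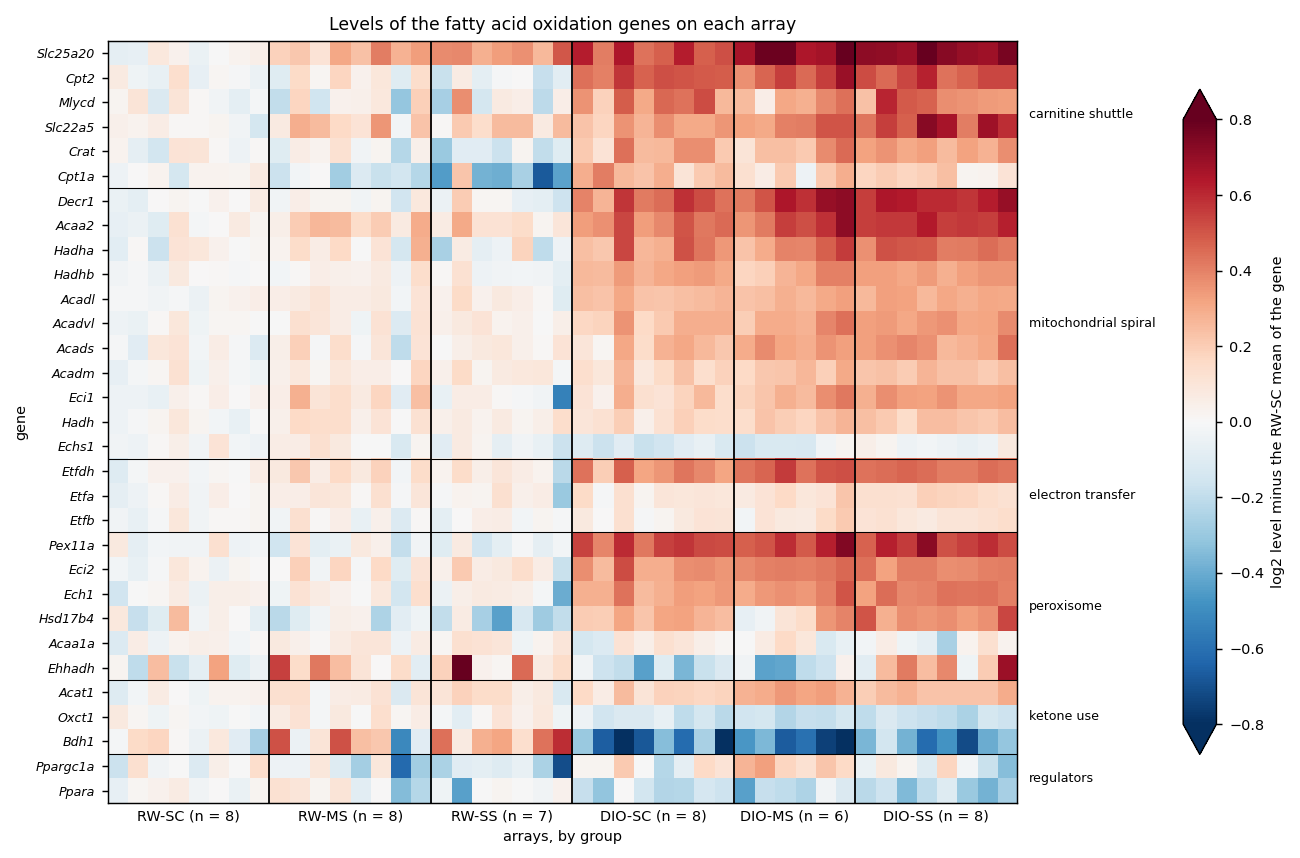
Each column is 1 of 45 hearts and each row 1 of 31 genes, grouped by role, and the colour is the log2 level minus the gene's RW-SC mean. Most rows turn red across the 22 DIO hearts, Bdh1 and Oxct1 turn blue there, and Slc25a20 is also red in the smoke-exposed RW hearts.

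Of 8 listed genes of fatty acid activation and the carnitine shuttle 6 were measured, and all 6 were called higher in air, with differences of 0.26 to 0.53. Slc25a20 encodes the translocase that exchanges acylcarnitine for carnitine across the inner mitochondrial membrane. Its level ran from 10.74 to 10.90 (median 10.83) in RW-SC and from 11.22 to 11.46 (median 11.31) in DIO-SC, with a difference of 0.53 ± 0.039 (SE; limma adjusted p = 4.67e-13). The lowest DIO-SC heart thus lay above the highest RW-SC heart. Cpt2, which turns acylcarnitine back to acyl-CoA on the matrix side, ran from 10.98 to 11.18 (median 11.02) in RW-SC and from 11.45 to 11.62 (median 11.54) in DIO-SC. Its difference was 0.49 ± 0.043 (SE; limma adjusted p = 3.20e-11). Mlycd, which removes malonyl-CoA, the inhibitor of the first step, rose by 0.37 ± 0.072. Slc22a5, the carnitine importer of the cell membrane, rose by 0.30 ± 0.048, and Crat, which moves short acyl groups onto carnitine, by 0.28 ± 0.048. Cpt1a, the liver form of the first enzyme of the shuttle, rose by 0.26 ± 0.066, from 8.04 ± 0.07 (SD, n = 8) to 8.30 ± 0.09 (SD, n = 8). In each of these 6 genes the RW-SC and DIO-SC hearts did not overlap.

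Of the 11 genes of the mitochondrial spiral, 10 rose in air and 1 fell. Decr1, the reductase that lets polyunsaturated chains enter the spiral, ran from 11.69 to 11.83 (median 11.77) in RW-SC and from 12.04 to 12.35 (median 12.21) in DIO-SC. Its difference was 0.45 ± 0.044 (SE; limma adjusted p = 2.3e-10). Acaa2, the thiolase that ends each turn, rose by 0.42 ± 0.043, and Hadha and Hadhb, the subunits of the trifunctional protein for long chains, by 0.35 ± 0.056 and 0.30 ± 0.030. Of the acyl-CoA dehydrogenases, which open each turn, Acadl rose by 0.25 ± 0.025, Acadvl by 0.24 ± 0.033, Acads by 0.21 ± 0.042 and Acadm by 0.16 ± 0.029. Hadh rose by 0.13 ± 0.027 and Eci1, an isomerase for unsaturated chains, by 0.16 ± 0.054 (limma adjusted p = 0.0328). Echs1, the hydratase for short chains, ran the other way and fell by 0.12. Its RW-SC hearts lay between 11.52 and 11.67 (median 11.54) and its DIO-SC hearts between 11.38 and 11.50 (median 11.45), without overlap (limma adjusted p = 0.00673).

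The call of Eci1 was lost with the mean of the fat cell list as a covariate (0.11, limma adjusted p = 0.154), with that of the brown fat list (0.14, 0.0728), and without RW-SC 1, 2 or 3 or DIO-SC 3, 6 or 7 (adjusted p up to 0.0742). Markers of fat cells moved with the diet: all 6 tested fat cell markers lay below RW-SC in DIO-SC, with a median difference of -1.51, and 2 of them were called (Scd1 at -2.88 and Retn at -1.33). The mean of that list was taken over its 8 genes with a probe set, those too dim to test included. Per array it ran from -1.18 to 1.93 in RW-SC and from -1.63 to 0.54 in DIO-SC, relative to all arrays. With the fat cell covariate 21 of the 31 genes were called higher and 4 lower.

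Of the 3 electron transfer flavoprotein genes 1 was called in air, and all 3 differences were above 0. Etfdh, the oxidoreductase that hands electrons to ubiquinone, rose by 0.36 ± 0.038 (SE; limma adjusted p = 1.47e-09), with RW-SC hearts between 11.90 and 12.06 and DIO-SC hearts between 12.20 and 12.48. Etfa and Etfb, the subunits of the soluble carrier that feeds it, did not pass in air (0.082 ± 0.036 and 0.065 ± 0.030, limma adjusted p = 0.102 and 0.122). Both passed in sidestream smoke, where Etfa differed by 0.15 and Etfb by 0.11, but Etfb lost its call after a further quantile normalization (0.080, limma adjusted p = 0.0507) and with the red cell covariate (0.081, 0.132). The test of a difference between the diet effects in air and in sidestream smoke did not pass (limma adjusted p = 0.326 and 0.481).

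In peroxisomes 4 of 6 genes rose in air. Pex11a, which elongates and multiplies peroxisomes, ran from 8.24 to 8.44 (median 8.29) in RW-SC and from 8.70 to 8.91 (median 8.84) in DIO-SC, a difference of 0.51 ± 0.043 (SE; limma adjusted p = 1.84e-11). Eci2 and Ech1, isomerases that act on unsaturated chains in mitochondria and peroxisomes, rose by 0.35 ± 0.041 and 0.32 ± 0.046. Hsd17b4, the multifunctional enzyme for very long and branched chains, rose by 0.26 ± 0.061. The other multifunctional enzyme, Ehhadh, stood at 6.70 ± 0.19 (SD, n = 8) in RW-SC and 6.5 ± 0.14 (SD, n = 8) in DIO-SC, and the difference of -0.20 ± 0.11 did not pass (limma adjusted p = 0.185). Acaa1a, a peroxisomal thiolase, differed by 0.026 ± 0.043 and passed in none of the 11 comparisons. It was the only one of the 31 genes of which this held.

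The genes of ketone use went in both directions. Bdh1, which interconverts beta-hydroxybutyrate and acetoacetate, ran from 10.33 to 10.77 (median 10.59) in RW-SC and from 9.37 to 10.34 (median 9.96) in DIO-SC. The groups overlapped only between 10.33 and 10.34, and the difference was -0.64 ± 0.12 (SE; limma adjusted p = 0.000141), the largest fall of the 31 genes in air. Oxct1, which activates acetoacetate, ran from 12.92 to 13.03 (median 12.94) in RW-SC and from 12.74 to 12.91 (median 12.82) in DIO-SC, a small fall of 0.13 with no overlap (limma adjusted p = 0.000921). Its 4 probe sets differed, at -0.13, -0.16, 0.0098 and -0.041, and their mean did not pass (-0.081, limma adjusted p = 0.19). Acat1, the thiolase that splits acetoacetyl-CoA and also serves isoleucine breakdown, rose by 0.16 ± 0.034.

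The 2 regulators did not rise in air. Ppara, which encodes PPAR alpha, ran from 9.59 to 9.72 (median 9.67) in RW-SC and from 9.34 to 9.66 (median 9.48) in DIO-SC, and fell by 0.18 (limma adjusted p = 0.0345). That call was lost after a further quantile normalization (-0.15, limma adjusted p = 0.0716) and without single arrays, RW-SC 3, 4 or 8 or DIO-SC 2, 5 or 6, with adjusted p up to 0.0708. Ppargc1a, which encodes PGC-1 alpha, stood at 10.06 ± 0.11 (SD, n = 8) and 10.09 ± 0.14 (SD, n = 8), a difference of 0.025 ± 0.083.

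The diet comparison was also made in hearts of mice that breathed smoke, whose group means rest on other arrays than those in air. The tests are not independent, because all groups share one estimate of the spread. In mainstream smoke 22 genes were called higher and 4 lower, against 5.14% and 5.45% of all genes (10.6% in either direction). In sidestream smoke 24 were higher and 3 lower, against 19.7% and 12.9% (32.6% in either direction). The arrays did not overlap for 15 genes in mainstream and 23 in sidestream smoke, against 2.38% and 7.21% of all genes. The median difference was 0.25 in mainstream and 0.34 in sidestream smoke, beside -0.004 and 0.019 over all genes. In all 3 settings 23 genes were called in the same direction, 21 higher and Bdh1 and Oxct1 lower. The share of all genes called alike in all 3 was not computed. It cannot exceed the 5.14% higher and 5.45% lower of mainstream smoke. Of the 23 genes, 3 lost the call in mainstream smoke under some alternatives. Acadl did so with the mean of its probe sets (0.11, limma adjusted p = 0.119), and Hadh with only the groups compared (0.11, 0.0998) or a further quantile normalization (0.080, 0.0853). Hsd17b4 did so without RW-MS 2, 6 and 8 (0.20, 0.0777), without DIO-MS 5 or 6 (up to 0.0769), with only the groups compared (0.23, 0.10) and with array weights (0.18, 0.0505).

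Markers of other tissues differed between the diets under smoke as well. In mainstream smoke 3 of 10 atrial markers were called higher in DIO hearts (median 0.67), and all 6 fat cell markers lay lower (median -0.88) without passing. Of the 31 genes, 23 were called higher and 4 lower without RW-MS 2, 6 and 8, and 22 and 4 with the fat cell covariate. In sidestream smoke 3 of 3 red cell markers were lower, 6 of 8 fibroblast and 5 of 6 endothelial markers higher. With the red cell covariate 23 of the 31 genes were called higher and 3 lower there, and the part of the fibroblast and endothelial markers was not tested.

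**Figure D2:**
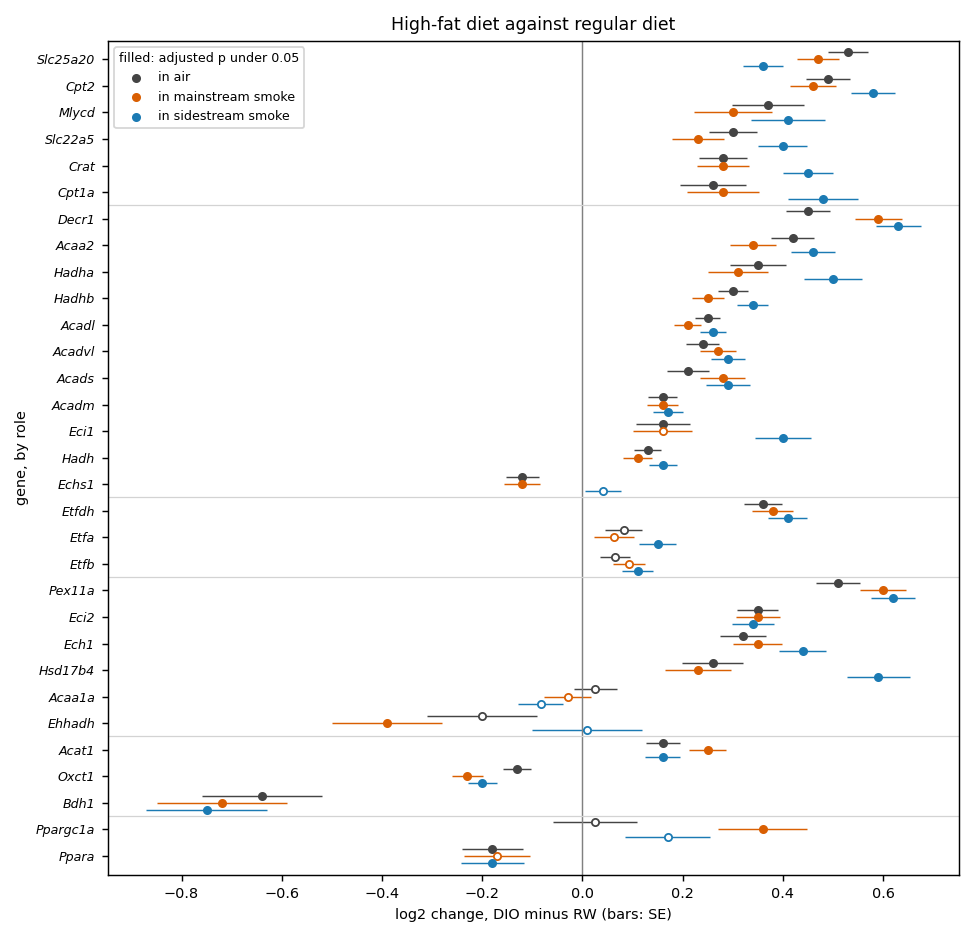
Points are the log2 difference of DIO minus RW hearts for each gene in air, mainstream and sidestream smoke, bars are SE, and filled points passed the limma adjusted p of 0.05. The shuttle genes lie between 0.23 and 0.58 in all 3 settings, Bdh1 between -0.75 and -0.64, and Hsd17b4 and Eci1 stand further right in sidestream smoke than in air.

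Decr1 and Pex11a led in both smokes, at 0.59 ± 0.047 and 0.60 ± 0.046 in mainstream smoke and 0.63 ± 0.045 and 0.62 ± 0.044 in sidestream smoke. In Decr1 the RW-MS hearts lay between 11.61 and 11.85 (median 11.79) and the DIO-MS hearts between 12.18 and 12.48 (median 12.38). Pex11a lay between 8.12 and 8.42 (median 8.27) in RW-MS and between 8.79 and 9.05 (median 8.86) in DIO-MS. No heart of one diet reached the other in either gene. Slc25a20 was the third in mainstream smoke at 0.47 ± 0.042, and Hsd17b4 in sidestream smoke at 0.59 ± 0.063. The other probe set of Hsd17b4, of like brightness, stood at 0.36 in sidestream smoke and 0.31 in air. The falls of Bdh1 were 0.72 and 0.75, with SE of 0.13 and 0.12.

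Certain genes were called in 1 or 2 of the 3 diet comparisons. Ppargc1a was called higher in DIO than in RW hearts under mainstream smoke, from 9.44 to 10.15 (median 9.99) in RW-MS and from 10.18 to 10.39 (median 10.26) in DIO-MS (0.36 ± 0.089, limma adjusted p = 0.00564). All 5 probe sets of Ppargc1a were higher there, by 0.17 to 0.36. The test of whether this differed from air did not pass (0.33 ± 0.12, limma adjusted p = 0.254). Ehhadh was lower in DIO under mainstream smoke (-0.39 ± 0.11, limma adjusted p = 0.02), with RW-MS hearts from 6.61 to 7.24 and DIO-MS hearts from 6.27 to 6.73. That call was lost with the mean of the brown fat list as a covariate (-0.26, limma adjusted p = 0.0805) and without DIO-MS 2 or 3 (up to 0.0669). Echs1 was lower in mainstream smoke as in air, at -0.12 ± 0.036 (limma adjusted p = 0.0234). It lost that call with only the groups compared (-0.12, 0.135), with the brown fat covariate (-0.11, 0.0538), and without RW-MS 3 or DIO-MS 1, 2, 3 or 4 (up to 0.0742). It stood at 0.041 ± 0.035 in sidestream smoke.

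Smoke moved far fewer of these genes than the diet did. In RW hearts 4 were called higher under mainstream smoke (background 2.86% higher and 4% lower, 6.86% in either direction) and 4 higher and 3 lower under sidestream smoke (background 11.7% and 13%, 24.6% in either direction). In DIO hearts 2 were higher under mainstream smoke (background 3.66% higher and 0.893% lower, 4.55% in either direction) and 10 higher under sidestream smoke (background 23% higher and 8.82% lower, 31.8% in either direction). As shares of the 31 genes these counts are 12.9%, 22.6%, 6.45% and 32.3%, and those under sidestream smoke lie near the background. The smoke and air hearts did not overlap for 1 gene in RW-MS, 1 in RW-SS, 2 in DIO-MS and 3 in DIO-SS, against 1.11%, 5.2%, 1.99% and 7.17% of all genes. The comparisons of a diet share their air controls, so each is given with its own values.

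**Figure D3:**
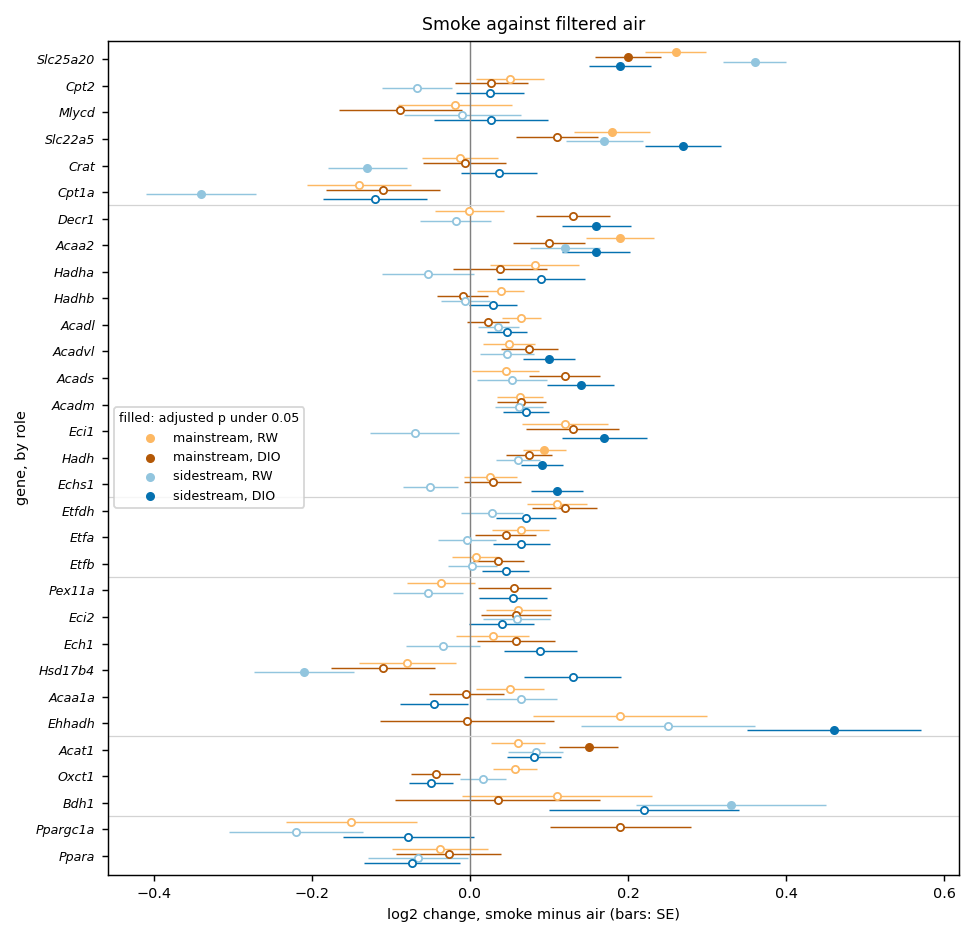
Points are the log2 difference of smoke minus air for each gene, for mainstream and sidestream smoke in RW and DIO hearts, bars are SE, and filled points passed the limma adjusted p of 0.05. Slc25a20 is filled and right of 0 in all 4 comparisons, and Cpt1a lies furthest left, at -0.34 in RW hearts under sidestream smoke.

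Slc25a20 was the only one of the 31 genes called in all 4 comparisons of smoke with air. The share of all genes called in all 4 was not computed, and it cannot exceed the 4.55% called in DIO hearts under mainstream smoke. In RW hearts the level of Slc25a20 ran from 10.74 to 10.90 in air. It ran from 10.92 to 11.22 (median 11.07) in mainstream and from 11.07 to 11.31 (median 11.18) in sidestream smoke. The differences from air were 0.26 ± 0.039 (limma adjusted p = 1.63e-05) and 0.36 ± 0.040 (limma adjusted p = 1.41e-08), higher in 8 of 8 and 7 of 7 hearts, with no overlap. In DIO hearts the level ran from 11.22 to 11.46 in air, from 11.46 to 11.63 (median 11.54) in mainstream and from 11.49 to 11.63 (median 11.52) in sidestream smoke. There the differences were 0.20 ± 0.042 (limma adjusted p = 0.00344) and 0.19 ± 0.039 (limma adjusted p = 0.000235). All 3 RW group means, at 10.81, 11.07 and 11.17, lay below the 3 DIO means, at 11.34, 11.54 and 11.54. The step from mainstream to sidestream smoke did not pass in RW (0.10 ± 0.040, limma adjusted p = 0.127) or in DIO hearts (-0.0042 ± 0.042, 0.964).

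The other probe set of Slc25a20 moved the same way in each of these comparisons, by 0.18, 0.19, 0.27 and 0.25. Without RW-MS 2, 6 and 8, whose hearts lacked atrial transcripts, the mainstream difference in RW hearts was 0.22 (limma adjusted p = 0.00102). With the mean of the red cell list as a covariate the sidestream difference in RW hearts was 0.38 (limma adjusted p = 1.27e-05).

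Slc22a5 and Acaa2 were called higher in RW hearts under each smoke and in DIO hearts under sidestream smoke. Slc22a5 ran from 8.24 to 8.44 (median 8.40) in RW-SC, from 8.36 to 8.73 (median 8.57) in RW-MS and from 8.39 to 8.63 (median 8.59) in RW-SS, with overlap. In DIO-SC it ran from 8.55 to 8.75 (median 8.68) and in DIO-SS from 8.79 to 9.11 (median 8.95), without overlap. The differences were 0.18 ± 0.048, 0.17 ± 0.049 and, in DIO-SS, 0.27 ± 0.048 (limma adjusted p = 0.0147, 0.00971 and 4.41e-05). Acaa2 ran from 12.16 to 12.38 (median 12.25) in RW-SC, from 12.30 to 12.55 (median 12.46) in RW-MS and from 12.28 to 12.56 (median 12.37) in RW-SS. It ran from 12.59 to 12.79 (median 12.66) in DIO-SC and from 12.81 to 12.89 (median 12.82) in DIO-SS. Its differences were 0.19 ± 0.043, 0.12 ± 0.044 and 0.16 ± 0.043 (limma adjusted p = 0.00404, 0.039 and 0.00412).

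Besides these, Hadh rose in RW-MS hearts by 0.094 ± 0.027 (limma adjusted p = 0.0235), a call that leaving out RW-MS 2 or 4, or RW-SC 1 or 7, ended (adjusted p up to 0.0582). Of 10 tested atrial markers 4 were called lower in RW-MS, and all 10 lay below RW-SC, with a median difference of -0.85. The list mean, over the 11 listed genes with a probe set, ran per array from -2.89 to 0.46 against -0.36 to 0.53 in RW-SC. Without RW-MS 2, 6 and 8 only 1 of the 4 calls remained, that of Slc25a20. The values without these arrays were 0.12 for Slc22a5 (limma adjusted p = 0.228), 0.16 for Acaa2 (0.0598) and 0.073 for Hadh (0.186), from 5 instead of 8 hearts.

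In DIO hearts the second gene called under mainstream smoke was Acat1. It ran from 11.98 to 12.18 (median 12.09) in DIO-SC and from 12.20 to 12.27 (median 12.23) in DIO-MS, a difference of 0.15 ± 0.037 without overlap (limma adjusted p = 0.0139). The 3 probe sets of Acat1 stood at 0.15, 0.071 and 0.21 there.

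Under sidestream smoke 3 genes fell in RW hearts. Cpt1a ran from 7.90 to 8.11 (median 8.06) in RW-SC and from 7.37 to 8.26 (median 7.65) in RW-SS. It was below the RW-SC mean in 6 of 7 hearts, and RW-SS 2 lay above all RW-SC hearts at 8.26. The difference was -0.34 ± 0.069 (limma adjusted p = 0.000341), and -0.43 without RW-SS 2 (limma adjusted p = 1.04e-07). Its dimmer probe sets were at -0.10 and -0.04, and the mean of the 3 at -0.16 (limma adjusted p = 0.0146). In RW-MS, DIO-MS and DIO-SS the differences of Cpt1a from air were -0.14, -0.11 and -0.12 and did not pass.

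Hsd17b4 fell in RW-SS by 0.21 (limma adjusted p = 0.0139), from 9.0 to 9.44 (median 9.17) in RW-SC to between 8.75 and 9.25 (median 8.99). Crat fell by 0.13, close to the threshold (limma adjusted p = 0.0471). Bdh1 rose by 0.33 ± 0.12, also close to it (limma adjusted p = 0.0489), from 10.59 to 10.91 in the medians, and its other probe set stood at 0.25. Red cell transcripts moved with this comparison: 3 of 3 tested markers were called higher in RW-SS, Alas2 by 1.16 ± 0.23. The list mean, over the 5 listed genes with a probe set, those too dim to test included, ran per array from 0.04 to 1.10 against -0.29 to -0.10 in RW-SC. With that mean as a covariate, Cpt1a (-0.43, limma adjusted p = 0.00128) and Slc25a20 kept their calls. The others did not, with -0.19 for Hsd17b4 (0.153), 0.19 for Slc22a5 (0.0623), 0.13 for Acaa2 (0.176), -0.085 for Crat (0.457) and 0.44 for Bdh1 (0.081), larger than its 0.33 without the covariate. Hsd17b4 also lost its call without RW-SS 4 (-0.17, 0.0523), one of the arrays high in red cell transcripts. The calls nearest the threshold were lost under many alternatives. Crat was lost without RW-SC 1, 4, 5, 6 or 8 or RW-SS 1, 2, 4 or 6 (adjusted p up to 0.127). Bdh1 was lost without any RW-SC array but 2 and 3, or without RW-SS 1, 3, 4, 6 or 7 (up to 0.105), and Acaa2 without RW-SC 1, 2, 3 or 5 or RW-SS 2, 3, 4 or 5 (up to 0.129). Apart from leaving out 1 array, 8 settings ended the call of Crat, 8 that of Bdh1 and 4 that of Acaa2. The red cell covariate was among them for each gene, and the limma adjusted p rose up to 0.457, 0.0982 and 0.665. The third probe set of Acaa2 stood at -0.13, and the mean of its probe sets at 0.035 (limma adjusted p = 0.665).

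In DIO hearts under sidestream smoke all 10 calls were upward. Besides Slc25a20, Slc22a5 and Acaa2 they were 6 genes of the mitochondrial spiral and the peroxisomal Ehhadh, which makes 7 of 11 spiral genes beside the 23% of all genes called higher. Ehhadh changed most, from 6.26 to 6.67 (median 6.52) in DIO-SC to between 6.61 and 7.38 (median 6.95) in DIO-SS, with slight overlap. Its difference was 0.46 ± 0.11 (limma adjusted p = 0.00113), or 1.37-fold. The spiral genes were Eci1 (0.17), Decr1 (0.16), Acads (0.14), Echs1 (0.11), Acadvl (0.10) and Hadh (0.091). All genes together also shifted upward in this comparison, with a median of 0.042, beside 0.071 for the 31 genes. Acads lost its call after a further quantile normalization (limma adjusted p = 0.0578), Decr1 with the mean of its 2 probe sets (0.0531), and Acadvl without DIO-SC 1 or 4 (up to 0.0609).

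Markers of other cells moved in the same comparison. Of 6 endothelial markers 4 were called higher in DIO-SS than in DIO-SC, with a median difference of 0.20, and of 8 fibroblast markers 1, with a median of 0.17. The 10 cardiac muscle markers lay between -0.033 and 0.061. The part of these in the values of the 31 genes was not tested.

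**Figure D4:**
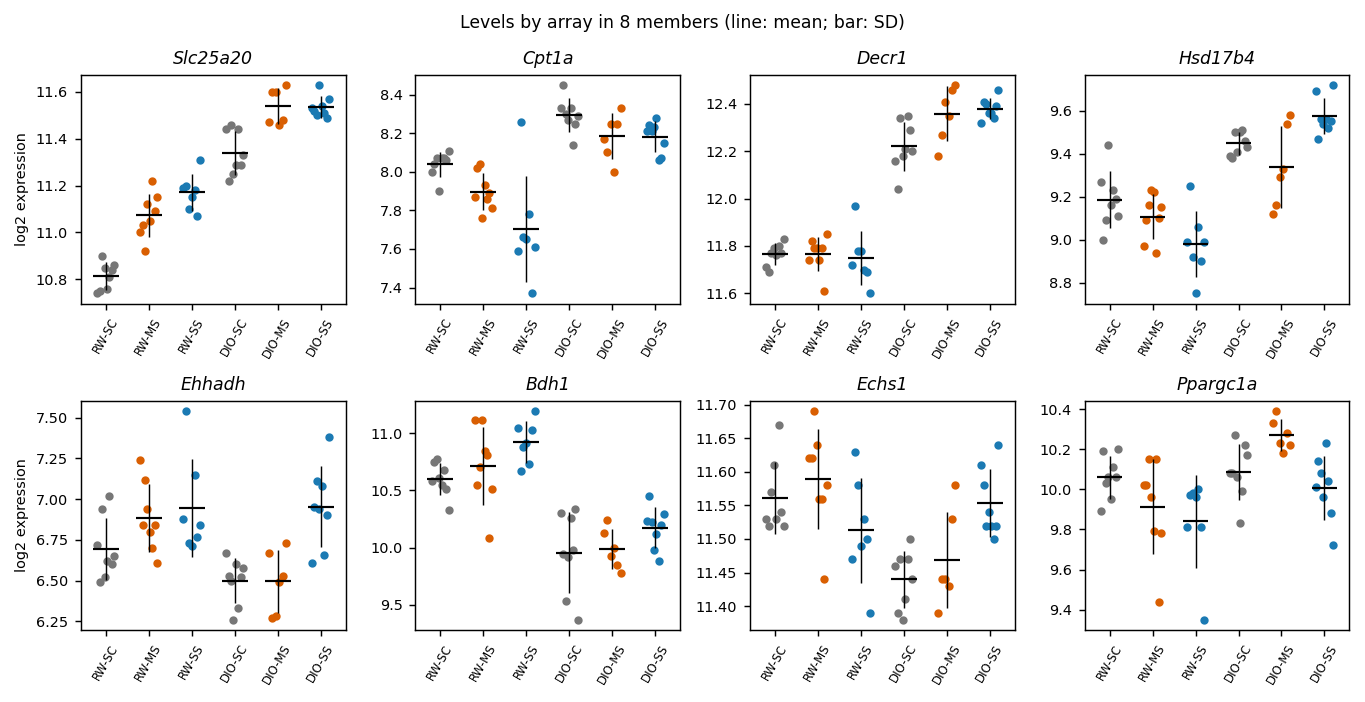
Each panel shows 1 gene, with a point per heart, the group mean as a line and the SD as a bar, on a log2 axis of its own that does not start at 0. Slc25a20 climbs from 10.81 in RW-SC to 11.54 in both smoke-exposed DIO groups, Cpt1a in RW-SS spreads from 7.37 to 8.26, and Bdh1 is lower in all 3 DIO groups than in their RW counterparts.

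An interaction term, the smoke effect of DIO hearts less that of RW hearts, tested whether smoke acted differently on the 2 diets. For mainstream smoke limma called 0 of 31 genes, against 0.226% of all genes (0.151% higher and 0.0753% lower). At an unadjusted p under 0.05 there were 3, Ppargc1a (0.33 ± 0.12), Decr1 (0.14 ± 0.064) and Oxct1 (-0.10 ± 0.042), with adjusted p of 0.254, 0.416 and 0.348. For sidestream smoke 5 were called, 4 higher and 1 lower, which is 16.1% against a background of 28.4% (18.3% higher and 10.1% lower). The median of the 31 genes was 0.048, below the 0.063 of all genes.

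The same contrast reads as the diet effect in sidestream smoke minus that in air. Hsd17b4 had the largest interaction at 0.33 ± 0.088 (limma adjusted p = 0.00501): it stood at -0.21 in RW and 0.13 in DIO hearts, and the diet effect was 0.26 in air and 0.59 in sidestream smoke. Its other probe set, of like brightness, stood at -0.15 in RW and -0.10 in DIO hearts, and the mean of both gave 0.19 (limma adjusted p = 0.0346). Eci1 stood at -0.07 in RW and 0.17 in DIO hearts (interaction 0.24 ± 0.078, limma adjusted p = 0.0197). RW-SS 7 was low for Eci1 at 11.64, the next RW-SS heart being at 12.12, and without it the interaction was 0.16 (limma adjusted p = 0.0271). Echs1 (0.16 ± 0.048, limma adjusted p = 0.0103) and Decr1 (0.18 ± 0.063, limma adjusted p = 0.0325) were also more positive in DIO hearts. Decr1 lost its call without RW-SS 7 (0.15, limma adjusted p = 0.0599), RW-SS 6 (0.17, 0.0508) or DIO-SC 2 (0.15, 0.0588).

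Slc25a20 was the 1 gene with a smaller sidestream effect in DIO hearts (-0.16 ± 0.056, limma adjusted p = 0.0259). That rests on its brighter probe set. The other one changed by 0.19 in RW and 0.25 in DIO hearts, and the mean of both gave -0.053 (limma adjusted p = 0.499). After a further quantile normalization Hsd17b4 and Slc25a20 kept their calls, while Eci1 (0.21), Echs1 (0.12) and Decr1 (0.16) had limma adjusted p of 0.0579, 0.0559 and 0.0681. In all, 1 gene was then called higher and 2 lower. With the red cell covariate Eci1 (0.25, limma adjusted p = 0.0564) and Decr1 (0.18, 0.0781) lost their calls at values no smaller than before, and the other 3 kept theirs.

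Sidestream and mainstream smoke were compared directly within each diet. In RW hearts Eci1 was lower under sidestream smoke (-0.19 ± 0.056, limma adjusted p = 0.0347), against 5.82% of all genes called (2.19% higher and 3.63% lower), and it was not called without RW-SS 7 (-0.11, limma adjusted p = 0.103) or without RW-MS 2, 4, 6 or 8 (up to 0.0863). In DIO hearts Ehhadh (0.46 ± 0.11, limma adjusted p = 0.0277) and Hsd17b4 (0.24 ± 0.066, limma adjusted p = 0.0414) were higher under sidestream smoke, against 2.55% of all genes called (1.59% higher and 0.958% lower). Ehhadh ran from 6.27 to 6.73 (median 6.51) in DIO-MS, and from 6.61 to 7.38 in DIO-SS. Hsd17b4 ran from 9.12 to 9.58 (median 9.31) in DIO-MS and from 9.47 to 9.72 (median 9.55) in DIO-SS. Both calls were lost without single arrays, Ehhadh without DIO-MS 2, 3 or 4 or DIO-SS 5 or 8 (adjusted p up to 0.103) and Hsd17b4 without DIO-MS 1, 2, 3 or 4 or DIO-SS 1, 4, 5, 7 or 8 (up to 0.152). The other probe set of Hsd17b4 stood at -0.042 there, and the mean of both at 0.10 (limma adjusted p = 0.262).

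Of 22 other listed genes that PPAR alpha is known to control, 18 were tested. In air 10 rose, 1 fell and 7 did not pass, with a median of 0.29, beside 6.92% of all genes called higher and 13.3% lower. Acot1, a cytosolic acyl-CoA thioesterase, differed by 1.2 ± 0.12, and Pdk4, the kinase that shuts off pyruvate dehydrogenase, by 1.85 ± 0.18. Cd36, which takes up fatty acids, differed by 0.32 ± 0.031 and Fabp3, which carries them in the cytosol, by 0.19 ± 0.019, all with limma adjusted p between 2.3e-10 and 4.08e-10. In mainstream smoke all 10 calls were upward (background 5.14%), and in sidestream smoke 12 were higher and 1 lower (background 19.7% and 12.9%). Against air, 1 was called higher and 1 lower in RW-MS, 4 higher and 1 lower in RW-SS, 1 of each in DIO-MS, and 5 in DIO-SS, all higher. As shares these are 11.1%, 27.8%, 11.1% and 27.8%, beside 6.86%, 24.6%, 4.55% and 31.8% of all genes. Those higher in RW-SS included Pdk4 (0.74), Slc27a1 (0.28) and Cd36 (0.16), and the one in RW-MS was Cyp4b1 (0.30). Smoke in RW hearts lowered Plin5, which coats lipid droplets in oxidizing tissue, by 0.40 in mainstream and 0.43 in sidestream hearts, both without overlap (limma adjusted p = 7.21e-05 and 8.95e-06).

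Of 35 further genes of fatty acid oxidation 26 were tested. In air 2 rose and 5 fell (26.9%, beside 20.3% of all genes), with a median of -0.032. Crot, the peroxisomal octanoyltransferase that hands shortened chains to carnitine (0.24 ± 0.048), and Abcd3, a peroxisomal importer (0.22 ± 0.050), rose. Acadsb and Hsd17b10, both of branched amino acid breakdown, fell by 0.25 and 0.20. In DIO hearts under sidestream smoke 11 of 26 were called, all upward (42.3%, beside 23% of all genes called higher), among them Pecr (0.28), Hacl1 (0.32) and Pccb (0.19).

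The citric acid cycle, the other large pathway of the mitochondrial matrix, stayed near 0 under the diet in air. limma called 0 of 17 enzymes (2 at an unadjusted p under 0.05), and the values lay between -0.10 and 0.055 with a median of 0.014. In mainstream smoke 1 of 17 and in sidestream smoke 7 of 17 were higher in DIO hearts (5.88% and 41.2%, beside 5.14% and 19.7% of all genes), with a median of 0.066 in the latter. Of 21 tested coregulators and energy sensors 3 were called in air, all lower (14.3%, beside 13.3% of all genes called lower). They were Lpin1 (-0.32 ± 0.039), a coactivator of PPAR alpha, Nrip1 (-0.36 ± 0.064), a corepressor, and Esrrb (-0.30 ± 0.073). In RW hearts under sidestream smoke 5 fell and 2 rose (33.3%, beside 24.6% of all genes), with Med1 at -0.29, Nrf1 at 0.33, Lpin1 at -0.20 and Sirt3 at -0.31.

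Taken per heart, the mean of the 31 genes relative to all arrays ran from -0.16 to -0.07 in RW-SC, from -0.24 to -0.01 in RW-MS and from -0.18 to 0.00 in RW-SS. In the DIO groups it ran from -0.02 to 0.14 in air, from 0.04 to 0.20 in mainstream and from 0.10 to 0.18 in sidestream smoke. All DIO-MS and DIO-SS hearts lay above all RW hearts by this mean, and DIO-SC lay above RW-SC without overlap. DIO-SC 2 (-0.0179) lay below RW-MS 2 (-0.0138) and RW-SS 2 (-0.0043), so this mean did not separate all DIO from all RW hearts. The mean of the 6 shuttle genes, each already called in the 3 diet comparisons, did so, with RW hearts up to -0.01 and DIO hearts from 0.07. The lowest mean of the 31 genes, -0.24, was that of RW-MS 7, a heart high in white blood cell markers. The part of those cells in it was not tested.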

How the data were processed

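RNA of 45 mouse hearts was hybridised to one-colour arrays. The deposited table holds log2 expression of 22690 probe sets, made by the authors with RMA per the submitters' processing notes (version and settings not given in the sources used here). Array medians lay between 6.20 and 6.24. Of the probe sets, 64 were controls, 20393 were annotated to 1 gene, 691 to several (not used) and 1606 were not listed. The probe set with the highest mean stood for its gene, and the lowest 25% of genes by mean over all arrays (below 4.90) were left out, which left 9295 of 12394 genes.

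One linear model with 6 group means was fitted to all arrays with limma 3.58.1 (lmFit, eBayes, R 4.3.3), with 42.6 degrees of freedom including those of the eBayes prior, two-sided tests and Benjamini-Hochberg adjustment over all genes tested within each of 11 comparisons. The fit was tested on simulated data. Tables and plots were made in Python 3.11.15 with pandas 2.3.3 and matplotlib 3.10.9. Precision is limited by the number of arrays.

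The alternatives were other filters, the mean of probe sets, every probe set tested, other eBayes settings, a further quantile normalization, array weights, fits of only the compared groups, replicate blocks, leaving out arrays, and marker lists as covariates. The brown fat covariate and the single AGGTCA site were added after the data were seen. The members and lists were chosen with earlier results of these data known. Any member could be named, and from each other list the 4 called genes of lowest adjusted p in a comparison, plus markers that check a tissue. Levels were given for members called under a smoke in both diets or in an interaction, and for the 3 largest rises and falls.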

Additional observations from a re-analysis of the deposited data

Results flagged for a closer look

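Single hearts stood below the rest of their group by Dixon's test in 11 of 186 checks (31 genes in 6 groups), where chance gives about 1 in 20. RW-SS 7 was the low heart in 6 of them: Etfa at 12.22 (next heart 12.51), Etfdh at 11.79 (12.03), Eci1 at 11.64 (12.12), Eci2 at 10.45 (10.67), Ech1 at 13.07 (13.42) and Ppargc1a at 9.35 (9.81). The Gapdh 3' minus 5' difference of that array was 0.94, and its part in these values was not tested. The other 5 were Slc22a5 in RW-SC 8 at 8.24 (8.35), Acadl in RW-MS 7 at 12.94 (13.01), Hadh in DIO-SS 3 at 13.77 (13.83), Ech1 in DIO-SS 1 at 13.79 (13.85) and Ppara in RW-SS 2 at 9.22 (9.62).

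The sidestream effect differed between the diets by the interaction test for Hsd17b4 (0.33), Eci1 (0.24), Decr1 (0.18), Echs1 (0.16) and Slc25a20 (-0.16), each as the effect in DIO less that in RW hearts on the log2 scale.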

How the results depend on the processing

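No call of the 31 genes changed its direction under any alternative run. None of these put another single probe set in place of the brightest, and some other probe sets stood opposite to a call. Examples are Acaa2 in RW-SS against air (-0.13), Hsd17b4 between the smokes in DIO hearts (-0.042) and Oxct1 for the diet in air (0.0098). For the diet, leaving out 1 array at a time gave 24 to 26 calls in air (26 with all arrays), 24 to 28 in mainstream smoke (26) and 27 in sidestream smoke (27), and the other settings 25 to 27, 23 to 28 and 26 to 27. Under smoke, leaving out 1 array gave 3 to 6 in RW-MS (4), 4 to 7 in RW-SS (7), 2 to 3 in DIO-MS (2) and 9 to 12 in DIO-SS (10). It gave 0 to 3 for sidestream against mainstream smoke in RW (1) and in DIO hearts (2), 4 to 6 for the sidestream interaction (5), and 0 for the mainstream interaction. In RW-MS, array weights gave 7 calls, leaving out RW-MS 2, 6 and 8 gave 1 and the atrial covariate 2. In RW-SS, testing every probe set gave 4 and the red cell covariate 2. In RW hearts, the call between the smokes went to 0 with only the groups compared, without RW-MS 2, 6 and 8, and with the atrial or the red cell covariate. In DIO hearts the count between the smokes was 1 with the mean of probe sets, 5 with array weights and 1 after a further quantile normalization. The sidestream interaction gave 3 after a further quantile normalization and 3 with the red cell covariate. The cause of these changes was not tested. The number of arrays and dim probe sets such as that of Ehhadh limit what small differences can show.

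With a replicate block on the number in the title, 4 genes were called in RW-MS, 6 in RW-SS, 2 in DIO-MS, 11 in DIO-SS, 26, 26 and 27 in the diet comparisons, 1 and 1 between the smokes and 5 in the sidestream interaction. A replicate block on the last 2 digits of the animal number gave 0 between the smokes in either diet and otherwise 4, 6, 2, 10, 26, 26, 27 and 5. Same-numbered arrays deviated together with correlations of -0.33 to 0.47 by title and -0.45 to 0.47 by animal number, and in no comparison were all pairs over 0.1. By title the median was lowest in DIO-SC minus RW-SC (-0.2). It was highest in RW-SS minus RW-MS (0.2), where 4 of 7 pairs were over 0.1. Whether equal numbers mark a shared batch was not tested, and the main fit took the arrays as unpaired.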
